A study of Homo sapiens with 6 samples.

Results

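The human mitochondrial genome carries 37 genes. All of those whose symbol starts with MT- on the mitochondrial chromosome (M, GRCh38) were taken here, 37 of the 60609 genes counted. They are 13 mRNAs, 2 rRNAs and 22 tRNAs, of which 28 lie on the plus strand of the reference and 9 on the minus strand. Their RNA was compared in OCI-AML5, a human acute myeloid leukemia cell line grown with GM-CSF, between cells given the solvent DMSO (3 libraries) and cells given 1 µM S767 (3 libraries), both for 24 hours. S767 is a small molecule from a screen of leukemia specimens, and the transcriptomes were recorded to ask how cells respond to it. All 6 libraries came from this 1 cell line, from poly(A)-selected RNA and a strand-specific kit, and nothing in the sample descriptions says whether same-numbered libraries came from separate cultures, so P values measure the spread between these libraries, which may be technical.

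Mitochondrial DNA is read almost whole from both strands. Transcription from the heavy-strand promoter gives a long RNA with the plus-strand sequence, which is cut at the tRNAs into the rRNAs, 12 of the mRNAs and most tRNAs. Transcription from the light-strand promoter gives RNA with the minus-strand sequence, which holds MT-ND6 and 8 tRNAs and is otherwise antisense to the genes of the other strand. This noncoding RNA is normally removed by the mitochondrial degradosome of SUV3 and PNPase. MT-TP is the first gene that light-strand transcription meets, and MT-TF the first from the heavy-strand promoter. The mRNAs encode 7 subunits of complex I, 1 of complex III, 3 of complex IV and 2 of complex V.

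Each library has 3 counts per gene: fragments on the strand of the gene (sense), fragments on the opposite strand (antisense), and fragments counted without regard to strand. Within each count, a fragment that touches more than 1 gene is counted for none. The sense and antisense counts consider the genes of 1 strand at a time. A fragment over genes on opposite strands can thus be sense for 1 gene and antisense for the other. MT-TS1, for example, had 0 or 1 counts per library without regard to strand and 50234 to 84722 antisense counts. This bears on a genome whose genes abut or overlap. The first 3 sequences show such places and the other 4 the tRNAs that the strand comparison turns on, all 5′ to 3′ on the strand named (GENCODE 29 transcripts, GRCh38).

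The plus strand where MT-ND4L runs into MT-ND4, chrM:10740-10786, with the 7 shared bases in capitals, which hold the stop codon of the first gene and the start codon of the second.
MT-ND4L/MT-ND4: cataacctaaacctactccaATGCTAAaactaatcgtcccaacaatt
The plus strand where MT-ATP8 runs into MT-ATP6, chrM:8507-8592, with the 46 shared bases in capitals.
MT-ATP8/MT-ATP6: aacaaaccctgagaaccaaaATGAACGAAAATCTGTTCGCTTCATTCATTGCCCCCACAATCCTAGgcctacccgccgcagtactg
The plus strand where MT-ND5 meets MT-ND6 end to end, chrM:14125-14172, with the complement of the end of MT-ND6 in capitals. A plus-strand RNA that continues past MT-ND5 is antisense to MT-ND6.
MT-ND5/MT-ND6: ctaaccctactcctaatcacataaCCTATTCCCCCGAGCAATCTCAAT
The proline tRNA, minus strand, chrM:15956-16023, first on the light-strand transcript.
MT-TP: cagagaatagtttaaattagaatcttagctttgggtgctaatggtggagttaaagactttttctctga
The threonine tRNA, plus strand, chrM:15888-15953, whose antisense window comes next on that transcript.
MT-TT: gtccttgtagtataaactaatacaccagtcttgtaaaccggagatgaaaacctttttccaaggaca
The tyrosine tRNA, minus strand, chrM:5826-5891, just before MT-CO1 on the map.
MT-TY: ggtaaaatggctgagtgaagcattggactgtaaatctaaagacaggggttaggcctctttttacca
The serine (UCN) tRNA, minus strand, chrM:7446-7514, just behind MT-CO1. The MT-CO1 mRNA is known to run on into its complement.
MT-TS1: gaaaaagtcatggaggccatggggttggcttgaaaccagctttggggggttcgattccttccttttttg

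The libraries held 149994700 to 258029564 sense counts in genes, and antisense counts were 6.44% to 6.58% of both strands over all genes. Of 8 myeloid markers, the 7 that could be matched had summed counts-per-million values (CPM, counts scaled to library size) of 663 to 735, with CD33, SPI1, PTPRC and MPO all present, while the summed T cell, B cell, erythroid, epithelial and fibroblast markers were at 0.229 CPM or less in every library. Of the same 7, CSF2RB was at 42.8 to 49.1 CPM, and CD34 and KIT were low, at 1.51 to 6.26 and 0.568 to 1.59 CPM. The mitochondrial genes took 4.74%, 5.56% and 5.07% of sense counts in the DMSO libraries 1, 2 and 3, and 5.09%, 6.03% and 5.22% in the S767 libraries. The 2 groups overlapped.

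All 13 mRNAs and both rRNAs were counted in every library, and 12 of the 22 tRNAs passed the limit on low counts, so 27 of the 37 genes were tested on sense counts. Of the other 10 tRNAs, 5 had no sense count in any library, and the highest count was 10. The tested tRNAs had 35 to 1119 sense counts per library. In the RSEM estimates all 22 tRNAs are listed at 0 TPM, so nothing on tRNAs rests on those. Ordered by TPM, a per-length scale, MT-ATP8 stood first and MT-ND6 last in all 6 libraries. The TPM means ran from 25491 ± 2421 (SD, n = 3) in DMSO for MT-ATP8 to 237 ± 72.9 for MT-ND6. The place of MT-ATP8 depends on the scale, since TPM divides by an effective length of 29.5 bases for this gene, whose full length is 207 bases. By sense CPM per kilobase of full length MT-ATP8 was 12th of 15 at 1757, and MT-CO1, a catalytic subunit of complex IV, was first at 6906. Neighbours in the TPM order overlapped over the libraries except MT-ATP8 above MT-ATP6, MT-ND1 above MT-ND5, and MT-RNR1 above MT-ND6. MT-ND4L stood 6th in each DMSO library and 3rd or 4th in the S767 libraries.

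**Figure D1:**
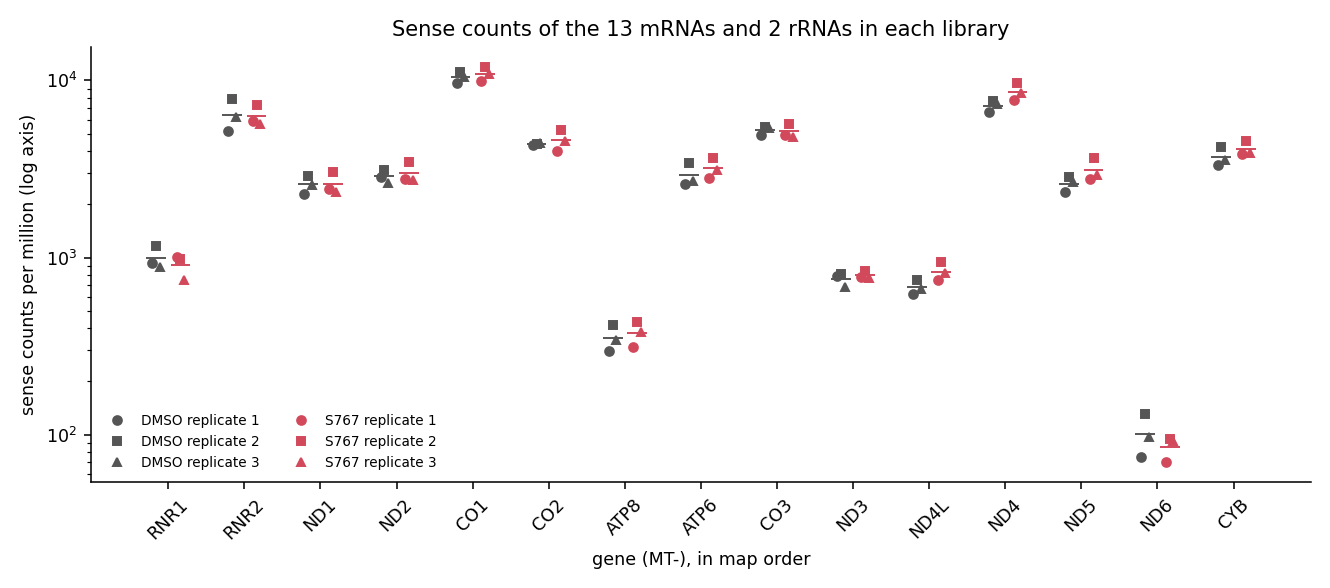
Sense CPM (vertical log axis) of the 13 mRNAs and 2 rRNAs in map order, 1 point per library (grey DMSO, red S767, symbols for replicate numbers) and a short line at the mean of 3 libraries. MT-CO1 lies highest and MT-ND6 lowest in both treatments, and MT-ND4 is the only gene shown whose groups do not overlap, at 6652 to 7615 in DMSO and 7760 to 9684 in S767.

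On the sense strand the last 4 mRNAs of the heavy-strand transcript had the highest log2 fold changes among the 13 mRNAs and 2 rRNAs, and several tRNAs of low count differed by more. MT-ND4L, MT-ND4 and MT-ND5, all subunits of complex I, had log2 fold changes of 0.29, 0.26 and 0.25, and MT-CYB, the cytochrome b of complex III, of 0.15. The median of the 13 mRNAs was 0.08, beside 0.00 over all genes tested, and 11 of the 13 were above 0. Without S767 replicate 2 that median was -0.002. None of the 27 genes passed an adjusted p of 0.05 in edgeR's quasi-likelihood test without a block, where 1 of 20725 genes did (0.00483%), and none did with DESeq2 or limma-voom. At a P value under 0.05 there were 6 of 27, beside 3.53% of all genes, with 3 higher (background 2.03%) and 3 lower (background 1.51%), while DESeq2 gave 7, limma-voom 6, and edgeR without S767 replicate 2 gave 3. These were MT-ND4L, MT-ND4 and MT-ND5 on the higher side and MT-TA, MT-TY and MT-TS1 on the lower, each with an adjusted p of 1 in edgeR. The groups did not overlap in sense CPM for 3 of the 27, beside 9.21% of all genes. With the replicate number as a block, a fit in which same-numbered libraries are compared, 8 of 27 passed the adjusted limit, beside 3.23% of all genes. Of these 7 were higher in S767 (background 2.16%) and 1 was lower (background 1.08%). That count was 17 without the replicate 1 pair, 8 without the replicate 3 pair and 1, MT-ND4L, without the replicate 2 pair. With all pairs the blocked fit had 2 residual degrees of freedom, beside 10.5 taken from the spread of all genes. Its SEs and adjusted p-values for sense counts thus rest largely on a shared spread. The fits without a pair had fewer residual degrees of freedom still, and their shares over all genes were not computed.

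MT-ND4L was at 625, 749 and 669 CPM in the DMSO libraries 1, 2 and 3 and at 743, 946 and 815 in the S767 libraries. It was higher in S767 in each same-numbered pair, and S767 library 1 lay below DMSO library 2. Its log2 fold change was 0.29 (SE 0.09), and with the block 0.29 (SE 0.03, adjusted p = 0.000153). MT-ND4 was at 6652, 7615 and 7328 CPM in DMSO and at 7760, 9684 and 8435 with S767. Every S767 library was above every DMSO library. The fit gave a log2 fold change of 0.26 (SE 0.09), with the block 0.26 (SE 0.03, adjusted p = 0.00146). These 2 genes share 1 mRNA, and the ratio of their counts was 10.2 to 11.0 in every library, so they are not independent of each other.

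MT-ND5 was at 2336, 2861 and 2659 CPM in DMSO and at 2769, 3644 and 2944 with S767, higher in all 3 pairs with overlapping groups. The log2 fold change of MT-ND5 was 0.25 (SE 0.11), and with the block its adjusted p was 0.00289. MT-CYB was at 3321, 4195 and 3554 CPM in DMSO and at 3864, 4532 and 3917 with S767. It too was higher in all 3 pairs while the groups overlapped. For MT-CYB the log2 fold change was 0.15 (SE 0.09), and with the block 0.16 (SE 0.03, adjusted p = 0.012). Summed, these 4 genes had 46.6%, 48.9% and 48.6% of the sense counts of the 8 mRNAs from MT-ND1 to MT-ND3 in the DMSO libraries and 54.0%, 54.8% and 54.5% in the S767 libraries. The 2 groups of percentages did not overlap, which needs no library size, but the split of the genes was made after their values had been seen, and an exact permutation test of 3 against 3 cannot give a two-sided P below 0.1.

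The 8 mRNAs nearer the heavy-strand promoter had log2 fold changes from -0.03 for MT-CO3 to 0.14 for MT-ATP6. MT-ATP6 and MT-ATP8, both subunits of the ATP synthase that overlap on 1 mRNA, passed only with the block, and neither did so there with RSEM counts (adjusted p = 0.0645 and 0.0584). MT-ATP8 also lost the call under the block with library size alone (adjusted p = 0.0507) and without regard to strand (adjusted p = 0.0548), and both lost it without the replicate 2 or the replicate 3 pair. MT-ATP6 was at 2616, 3397 and 2715 CPM in DMSO and 2829, 3648 and 3119 with S767 (log2 fold change with the block 0.14, SE 0.03, adjusted p = 0.0199). For MT-ATP8 the values were 296, 414 and 344 CPM in DMSO and 314, 436 and 378 with S767 (with the block 0.10, SE 0.02, adjusted p = 0.0412). Both were higher in each pair by less than the spread within a treatment. The subunits of complex IV had log2 fold changes of 0.06 for MT-CO1, 0.08 for MT-CO2 and -0.03 for MT-CO3, and MT-ND1, MT-ND2 and MT-ND3 of complex I had 0.01, 0.06 and 0.07. None of these 6 passed in either fit.

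The rRNAs of the small and large mitochondrial ribosomal subunit were not called either. MT-RNR1 was at 931, 1165 and 880 CPM in DMSO and 1007, 984 and 749 with S767 (log2 fold change -0.12, SE 0.13). MT-RNR2 was at 5196, 7825 and 6193 CPM in DMSO and 5898, 7250 and 5703 with S767 (log2 fold change -0.03, SE 0.15). Both were higher in S767 in pair 1 and lower in pairs 2 and 3. rRNA counts were 14.1% to 19.1% of mRNA counts, with overlapping groups. These libraries select poly(A) tails, and the share of each RNA with a tail long enough to be caught cannot be told apart from its level. Likewise fewer cells or mitochondria and less RNA in each cannot be told apart in bulk RNA.

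MT-ND6, the only mRNA of the minus strand, encodes a subunit of complex I, and its mRNA is known to lack a poly(A) tail. Its sense count was at 75.2, 131 and 97.4 CPM in DMSO and at 69.9, 94.6 and 92.7 with S767. It was lower in S767 in all 3 pairs, and the groups overlapped. The log2 fold change was -0.24 (SE 0.19), and with the block -0.22 (SE 0.06), just outside the limit at an adjusted p of 0.0596. On the opposite strand its window held far more. The antisense count was at 656, 812 and 786 CPM in DMSO and at 784, 1094 and 909 with S767, higher in all 3 pairs. The log2 fold change was 0.35 (SE 0.09), with the block 0.34 (SE 0.06, adjusted p = 2.21e-05). These antisense fragments were 28.1% to 30.9% of the sense count of MT-ND5, the gene that ends where MT-ND6 begins, in all 6 libraries. A plus-strand fragment over that junction enters both counts, so they are not independent. Without regard to strand, where such fragments are left out, MT-ND5 kept 88.0% to 89.4% of both strands.

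Which column is read therefore decides the direction for MT-ND6. Without regard to strand the counts were 92466, 87134 and 134368 in DMSO and 124151, 127437 and 118131 with S767, or 57.9% to 62.2% of the sum of both strands. The log2 fold change of that column was 0.27 (SE 0.13), and with the block 0.27 (SE 0.03, adjusted p = 9.56e-05), against -0.24 on the sense strand. The RSEM estimate followed the sense strand. It gave 172, 316 and 224 TPM in DMSO and 174, 221 and 213 with S767, and a log2 fold change on its rounded counts of -0.22 (SE 0.22). The sense share of MT-ND6, its sense count in percent of both strands, was 10.3%, 13.9% and 11.0% in DMSO and 8.19%, 7.96% and 9.26% with S767, without overlap.

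**Figure D2:**
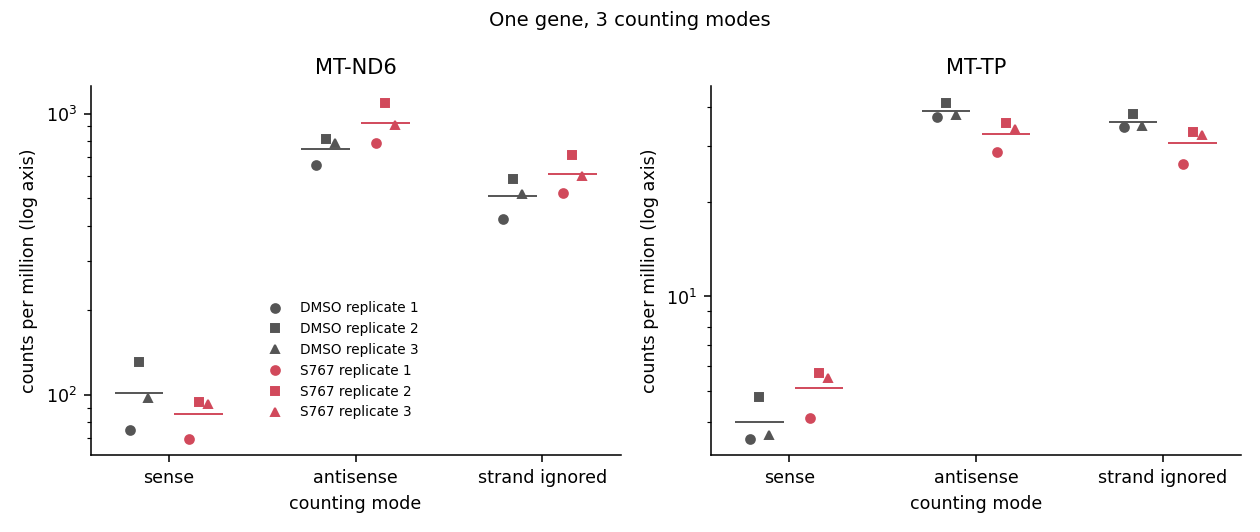
CPM (vertical log axes) of MT-ND6 (left) and MT-TP (right) by counting mode, 1 point per library and a line at the mean of 3 libraries per treatment. For MT-ND6 the sense mean is lower with S767 (101 in DMSO, 85.8 with S767) and the antisense mean higher (751 and 929), and for MT-TP the order is turned round (sense 3.99 and 5.12, antisense 38.7 and 32.8), so the column without regard to strand follows the antisense fragments in both.

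Among the tRNAs, sense counts come from the few fragments that touch no other gene of the same strand. They may touch a gene of the opposite strand. Without regard to strand MT-TQ, MT-TW, MT-TA, MT-TD and MT-TT had 0 counts in every library, while MT-TF kept 100% of both strands. MT-TS1 was at 2.05, 2.55 and 2.44 CPM in DMSO and at 1.84, 1.07 and 1.43 with S767, with every S767 library below every DMSO library. Its log2 fold change was -0.69 (SE 0.20), with the block -0.69 (SE 0.15, adjusted p = 0.0293). That call was lost with DESeq2 and the block (adjusted p = 0.176) and without the replicate 2 pair (adjusted p = 0.394). Antisense counts were 99.3% to 99.7% of both strands for MT-TS1 and 98.8% to 99.8% for MT-TY, so their sense counts are a small share. The lowest antisense share of the plus-strand mRNAs and rRNAs was 0.224% to 0.457%, and the part of misassigned strands in these sense counts was not tested. MT-TY was at 0.504, 0.754 and 0.437 CPM in DMSO and at 0.491, 0.229 and 0.259 with S767, lower in each pair (log2 fold change -0.75, SE 0.33, and with the block adjusted p = 0.132). For MT-TA, the alanine tRNA, the values were 1.08, 1.51 and 1.21 CPM in DMSO and 1.04, 0.670 and 1.02 with S767 (log2 fold change -0.47, SE 0.20). All 3 are minus-strand genes, and in each the smallest difference was in pair 1. Of the 7 minus-strand genes tested on sense counts, 6 were below 0, and the exception was MT-TP.

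MT-TP was at 3.54, 4.81 and 3.62 CPM in DMSO and at 4.13, 5.72 and 5.53 with S767. It was higher in each pair, and the groups overlapped. Its log2 fold change was 0.36 (SE 0.16), with the block 0.36 (SE 0.08, adjusted p = 0.0282). Like MT-ND6 it turned round when strand was ignored, to -0.22 (SE 0.09). The other 8 tested tRNAs had log2 fold changes from -0.33 for MT-TF to 0.11 for MT-TI, and none had a P value under 0.05 without the block. These were MT-TF, MT-TI, MT-TQ, MT-TM, MT-TW, MT-TD, MT-TE and MT-TT, the tRNAs for phenylalanine, isoleucine, glutamine, methionine, tryptophan, aspartate, glutamate and threonine.

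The antisense strand gave the more uniform difference. All 12 mRNAs and both rRNAs of the plus strand had antisense log2 fold changes below 0, from -0.83 for MT-ND4L to -0.05 for MT-ATP8. The median of the 13 mRNAs was -0.41, beside -0.02 over all 16289 genes tested. None of 27 members passed the adjusted limit without the block in edgeR's test, where 0% of all genes did, and none did with limma-voom or DESeq2. A P value under 0.05 was reached by 13 of 27, beside 2.12% of all genes, and by 13 with limma-voom and 11 with DESeq2. Of the 13, 9 were lower in S767 (background 1.2%), MT-ND1, MT-ND2, MT-CO1, MT-CO2, MT-CO3, MT-ND4L, MT-ND4, MT-CYB and MT-TP, and 4 higher (background 0.915%), MT-ND6, MT-TE, MT-TY and MT-TT, all with an adjusted p of 1. Every S767 library was below every DMSO library for 8 of the 27, beside 5.1% of all genes, and no member had the groups apart the other way. With the block 15 passed the adjusted limit, beside 0.694% of all genes. There 11 were lower (background 0.405%) and 4 higher (background 0.289%). That fit had 2 residual degrees of freedom and took the spread of every gene from the trend over all genes. For every antisense value given with the block, the SE and adjusted p-value therefore rest on a shared spread, not on the gene's own pairs. Without the replicate 1, 2 or 3 pair 14, 12 and 8 members passed, in fits with fewer residual degrees of freedom still. Without the block, leaving out DMSO replicate 1 raised the count from 0 to 4. Shares over all genes were not computed for the fits with libraries left out.

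MT-ND4L had 5.10, 8.25 and 7.86 antisense CPM in DMSO and 4.77, 2.94 and 3.81 with S767. The groups were apart, narrowly through library 1 of each treatment. The antisense log2 fold change was -0.83 (SE 0.18), with the block -0.82 (SE 0.07, adjusted p = 3.55e-31), opposite in sign to its sense value of 0.29. The log2 ratios of pairs 1, 2 and 3 were -0.09, -1.49 and -1.05, a wider spread than the SE with the block conveys. MT-ND1 had 69.9, 72.1 and 84.1 antisense CPM in DMSO and 57.5, 37.0 and 47.4 with S767 (log2 fold change -0.63, SE 0.14). MT-CO1 had 82.4, 119 and 97.5 in DMSO and 74.9, 64.2 and 62.8 with S767 (log2 fold change -0.52, SE 0.10). MT-ND2 had 55.7, 77.8 and 68.6 in DMSO and 43.3, 54.7 and 42.5 with S767 (log2 fold change -0.48, SE 0.10). In these 4 genes no S767 library reached a DMSO library.

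MT-ND4, MT-CYB and MT-CO3 showed the same order of the groups. MT-ND4 had 120, 197 and 176 antisense CPM in DMSO and 117, 118 and 114 with S767 (log2 fold change -0.45, SE 0.11). MT-CYB had 92.6, 129 and 92.7 in DMSO and 79.4, 73.3 and 73.9 with S767 (log2 fold change -0.42, SE 0.09). MT-CO3 had 54.7, 72.8 and 77.2 in DMSO and 52.2, 48.0 and 49.9 with S767 (log2 fold change -0.41, SE 0.10). In all 3 no S767 library reached a DMSO library, and pair 1 had the smallest difference. MT-CO2 had 35.8, 64.3 and 54.0 in DMSO and 36.8, 35.0 and 40.6 with S767, where pair 1 was higher in S767 (log2 fold change -0.40, SE 0.13).

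The antisense counts of MT-ATP8, MT-ATP6, MT-ND3, MT-RNR1 and MT-RNR2 followed the replicate number more than the treatment. MT-ATP6 had 45.8, 139 and 67.2 antisense CPM in DMSO and 44.2, 122 and 60.7 with S767, and in each of these 5 genes library 2 was highest in both treatments. Their log2 fold changes were -0.05, -0.10, -0.18, -0.41 and -0.20, with none at a P value under 0.05 without the block, and MT-RNR1 alone passed with it (adjusted p = 0.000129). MT-ND5 had the most antisense RNA of the plus-strand genes, at 295, 454 and 431 CPM in DMSO and 282, 318 and 373 with S767. Its log2 fold change was -0.23 (SE 0.12), and with the block -0.22 (SE 0.06, adjusted p = 0.0271).

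A share of antisense to sense counts in 1 library needs no scaling between libraries. Over the 12 plus-strand mRNAs together antisense counts were 2.11%, 2.86% and 2.66% of both strands in DMSO and 1.85%, 1.69% and 1.93% with S767. The groups did not overlap, and the smallest difference was in pair 1. For MT-ND2 the share was 1.92%, 2.42% and 2.55% in DMSO and 1.53%, 1.55% and 1.53% with S767. For MT-CYB it was 2.71%, 2.98% and 2.54% in DMSO and 2.01%, 1.59% and 1.85% with S767. In 5 of the 6 libraries the lowest share among the 14 plus-strand mRNAs and rRNAs was that of MT-RNR1, at 0.224% to 0.457%, and in S767 library 2 it was that of MT-ND4L, at 0.310%. A portion of fragments put on the wrong strand alike in every gene could be no larger than that.

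In limma's test of the log2 ratio of antisense to sense counts, 26 of the 37 genes could be tested, and none passed the adjusted limit without the block, where 0% of 12766 genes did, nor with it, again 0%. Leaving out a pair under the block, 2 members passed when it was pair 1, 7 when it was pair 2 and 0 when it was pair 3. The share over all genes was not computed for these 3 fits. At a P value under 0.05 in limma there were 14 of 26 without the block, beside 2.62% of all genes. In 10 the antisense share was lower (background 1.87%) and in 4 higher (background 0.744%). The log2 change of the ratio was -1.17 for MT-ND4L (SE 0.24), -0.73 for MT-ND4 (SE 0.14), -0.61 for MT-CYB (SE 0.11) and -0.51 for MT-ND5 (SE 0.14). These 4 had an adjusted p of 1. The median over all genes was -0.08, so the antisense share was on balance a little lower with S767 outside mitochondria as well. The 4 with a higher antisense share were MT-ND6 at 0.52, MT-TE at 0.59, MT-TS1 at 0.72 and MT-TY at 1.19, all minus-strand genes, whose antisense RNA is that of the plus strand.

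Both columns can also be read by the strand of the RNA rather than by gene. RNA of the minus strand was tested in 25 windows, the sense counts of minus-strand genes and the antisense counts of plus-strand genes, with a median log2 fold change of -0.27 and 21 below 0. RNA of the plus strand was tested in 29 windows with a median of 0.06 and 19 above 0. Over all genes tested the medians were 0.00 for sense and -0.02 for antisense counts. These are the same values as in the comparisons by gene, regrouped, and no further evidence. In sums over windows, a fragment over genes of both strands is counted for each gene. Taken as 1 share, minus-strand counts were 2.03%, 2.73% and 2.52% of both strands over the 37 genes in DMSO and 1.77%, 1.69% and 1.90% with S767. No S767 library reached a DMSO library. As CPM the minus-strand total without MT-TP and MT-TT was 989, 1604 and 1336 in DMSO and 917, 1078 and 1030 with S767, and there DMSO library 1 lay among the S767 libraries.

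**Figure D3:**
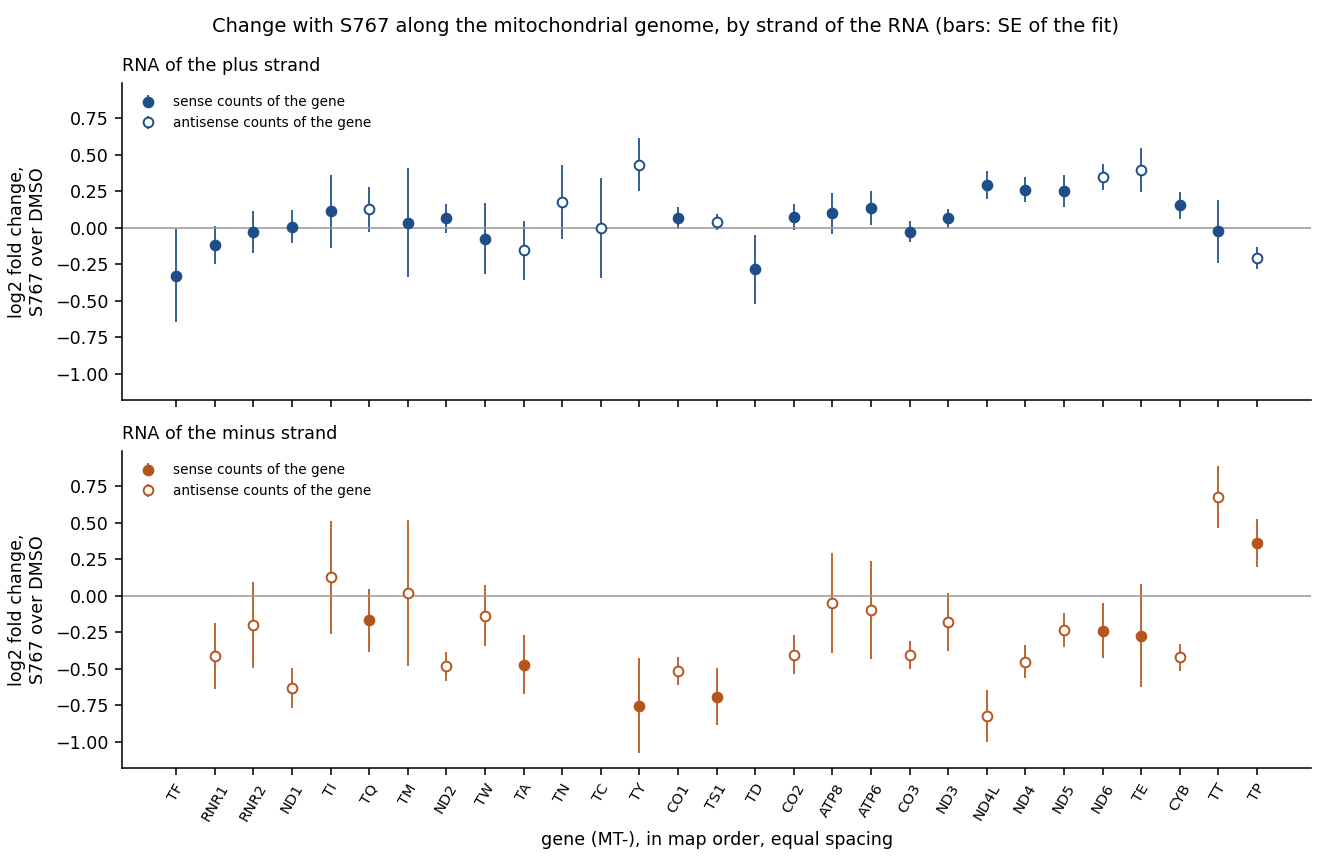
Log2 fold change of S767 over DMSO (points, with bars for the SE of the edgeR fit without a block) for each tested gene in map order at equal spacing, split into RNA of the plus strand (upper panel) and of the minus strand (lower panel). Filled points are sense counts of a gene and open points antisense counts. Minus-strand points lie mostly below 0 down to -0.83 at MT-ND4L, except MT-TT at 0.68 and MT-TP at 0.36 at the right end and MT-TI and MT-TM near 0, and plus-strand points lie above 0 from MT-ND4L to MT-CYB.

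The 2 windows nearest the light-strand promoter went the other way from most of that transcript. They are not independent of each other. Without regard to strand MT-TT had 0 counts in every library, so its antisense fragments also touched a minus-strand gene, and MT-TP adjoins it. Such fragments are sense counts of MT-TP as well, and a sum of both windows counts them for each. Antisense counts of MT-TT were at 0.655, 0.801 and 0.704 CPM in DMSO and at 0.705, 1.34 and 1.33 with S767, higher in all 3 pairs. The log2 fold change was 0.68 (SE 0.22), with the block 0.65 (SE 0.12, adjusted p = 0.0001). Next to it the sense counts of MT-TP, given above, had 0.36. Together MT-TP and MT-TT had 4.53%, 4.36% and 4.67% of the minus-strand counts of the adjoining MT-CYB in DMSO and 6.09%, 9.63% and 9.28% with S767. The groups did not overlap, and pair 1 again had the smallest difference. MT-TP was likewise at 4.71%, 3.66% and 3.72% of the sense count of MT-ND6 in DMSO and at 5.90%, 6.05% and 5.96% with S767. Both quotients were formed after the values had been seen, so they are given without a test.

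On the plus strand the MT-TP window, which lies beyond the last gene of that transcript, was lower. Its antisense count was at 37.3, 41.3 and 37.7 CPM in DMSO and at 28.7, 35.5 and 34.1 with S767 without overlap (log2 fold change -0.20, SE 0.08, and with the block adjusted p = 0.0293). In percent of MT-CYB sense counts it was 1.12%, 0.984% and 1.06% in DMSO and 0.742%, 0.784% and 0.870% with S767. The plus-strand fragments over MT-TY and MT-TE, the tRNA windows just before MT-CO1 and MT-CYB, were higher. Those over MT-TY were at 41.5, 62.1 and 44.0 CPM in DMSO and 45.7, 89.8 and 57.9 with S767 (log2 fold change 0.43, SE 0.18, and with the block adjusted p = 1.87e-09). Those over MT-TE were at 15.9, 22.8 and 16.2 in DMSO and 18.7, 30.8 and 20.6 with S767 (log2 fold change 0.40, SE 0.15, and with the block adjusted p = 2.44e-08). Both were higher in each pair with overlapping groups. Without regard to strand MT-TY kept 6 to 22 counts and MT-TE 0 to 4. Nearly all of these fragments thus also touched a plus-strand gene. Those over MT-TY were 0.431%, 0.560% and 0.419% of MT-CO1 sense counts in DMSO and 0.458%, 0.756% and 0.536% with S767. Those over MT-TE were 0.478%, 0.543% and 0.457% of MT-CYB sense counts in DMSO and 0.484%, 0.680% and 0.525% with S767. In both percentages the groups overlapped. The MT-TS1 window behind MT-CO1 differed little, with an antisense log2 fold change of 0.04 (SE 0.06) and 2.82% to 3.38% of the MT-CO1 sense count.

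Copies of mitochondrial genes in the nuclear genome can share reads with the members. Of 417 such copies listed, 29 passed the limit on low counts, and together they held 1.07% to 1.10% of the sense counts of the mitochondrial mRNAs and rRNAs. The highest was MTATP6P1, with 64084 to 103024 sense counts and a log2 fold change of 0.15 (SE 0.09), close to that of MT-ATP6. MTND2P28 had 0.08 (SE 0.09), MTCO1P12 -0.03 (SE 0.11), MTCO2P12 -0.13 (SE 0.14) and MTRNR2L12 -0.17 (SE 0.24). RSEM, which shares out reads that fit several genes, gave MT-ND2 132% to 141% of its sense count, MT-ATP6 133% to 152% and MT-ATP8 165% to 170%, but MT-ND6 only 53.1% to 58.0%, so the levels of these 4 depend on the counting. MT-ND4L had 98.9% to 104% and MT-ND4 98.0% to 102%.

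Nuclear genes that serve the mitochondrial genome were read from 4 lists, and 1 of their genes, RRM2B, passed with the block, beside 3.23% of all genes. In the list for mitochondrial transcription, 0 of 10 genes had a P value under 0.05, beside 3.53% of all genes, with a median log2 fold change of -0.01. POLRMT, the mitochondrial RNA polymerase, was at -0.05 (SE 0.05), the transcription factor TFB2M at -0.05 (SE 0.03) and MTERF2 at 0.17 (SE 0.08). In the list for RNA processing and decay it was 0 of 20 with a median of -0.03, where FASTKD5, FASTKD1 and PTCD2 had the lowest P values at -0.06, 0.06 and -0.10. Among 32 nuclear core subunits of the respiratory complexes it was 0 with a median of 0.01, where UQCRC1 of complex III was at 0.07, ATP5F1D of complex V at -0.09 and COX7B of complex IV at 0.06. In these 3 lists none passed the adjusted limit with the block either. At a P value under 0.05 in edgeR with the block, 1 transcription gene was higher and 2 were lower. For RNA processing and decay 1 was higher and 4 lower, and for the core subunits 1 and 1. Over all genes tested 3475 of 20725 reached that P value with the block.

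Of 10 genes for the upkeep of mitochondrial DNA 1 had a P value under 0.05 (background 3.53%), and 2 did in edgeR with the block (background 3475 of 20725 genes). The 1 without the block was RRM2B, a p53-regulated subunit of ribonucleotide reductase, with mean levels of 76.0 CPM in DMSO and 90.1 with S767. The log2 fold change of RRM2B was 0.25 (SE 0.05) at an adjusted p of 1, and with the block the adjusted p was 0.000473. POLG, the mitochondrial DNA polymerase, was at 0.05 (SE 0.05) and TK2, a mitochondrial thymidine kinase, at 0.06 (SE 0.07).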

How the data were processed

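Poly(A)-selected, strand-specific libraries (3 DMSO, 3 S767) were analysed. Per the labels, the authors aligned reads to GRCh38 with STAR 2.7.1a and deposited counts per gene for 3 strand settings, and RSEM 1.2.28 expected counts (estimated counts) with TPM, not rescaled further. The annotation release is not given in the sources used here. Of 60609 identifiers 58502 matched GENCODE 29, which gave names and positions. Reverse-strand counts were taken as sense and forward-strand counts as antisense. Summary lines (unmapped, multimapping, no feature, ambiguous), 19.7% to 20.7% of fragments, were left out.

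Genes passing filterByExpr (minimum count 10) were tested with edgeR 4.0.16 (quasi-likelihood, TMM, Benjamini-Hochberg over all genes tested) in R 4.3.3. CPM, for antisense counts too, divides by the TMM-scaled sense library size, while the antisense test has its own TMM factors. The log2 ratio of antisense to sense counts (0.5 added to each, at least 10 counts on each strand in 3 libraries) was tested with limma 3.58.1. DESeq2 1.42.0, limma-voom, other scalings, limits, RSEM counts, log2(TPM + 1), log2(TPM + 0.1) and libraries left out were alternatives. Scripts were tested on simulated data. SDs are over 3 libraries.

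The replicate numbers pair the libraries. Over 6191 genes, the deviations of a library from its group mean had correlations of 0.78, 0.87 and 0.75 with those of its same-numbered partner. All other combinations gave correlations below 0, which adds little, since deviations from a mean of 3 libraries sum to 0. This pairing comes from the values, not the labels. Fits blocked on replicate number are given for the sense calls of members that they change and for part of the antisense calls. On antisense counts MT-ND1, MT-ND2, MT-CO1, MT-CO2, MT-CO3, MT-ND4 and MT-CYB also passed with the block, and only their values without it are printed.

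The members, lists and tests were chosen with earlier results of these data known. All mRNAs and rRNAs, tested tRNAs, the up to 3 genes of lowest P in each nuclear list and the 5 highest nuclear copies are named.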

Additional observations from a re-analysis of the deposited data

How the results depend on the processing

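Without the replicate block, 0 members passed the adjusted limit on sense counts under every alternative, and with the block 8 did in edgeR, 8 with limma-voom, 7 with DESeq2, 4 with RSEM counts, 7 with counts without regard to strand, 7 with library size alone and 8 with TMM factors set without the mitochondrial genes. Leaving out libraries gave 0 to 17 (17 without the replicate 1 pair). Over all genes in edgeR, 3.23% passed that limit with the block. A P value under 0.05 was reached by 3475 of 20725 genes with the block and by 3.53% without it. Shares over all genes were not computed for the other alternatives. Members at a P value under 0.05 on sense counts numbered 3 without regard to strand, 2 with RSEM counts and with TPM under either pseudocount, 15 with the block, 14 with limma-voom and the block, 12 with DESeq2 and the block, 14 with library size alone and the block, 15 with TMM set without the mitochondrial genes and the block, and 3 (without S767 replicate 2) to 18 with libraries left out. Most tRNAs were not tested without regard to strand, none were with RSEM counts, and all are at 0 TPM. Member counts under those settings therefore cover fewer genes. The 7 without regard to strand under the block included MT-ND6 and MT-TP, each opposite in direction to its sense counts. The sense median was 0.065 to 0.096 with all libraries and -0.002 to 0.170 with libraries left out.

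Antisense members past the adjusted limit numbered 12 with no limit on low counts, 15 with the block, 16 with the block and sense library sizes, which was added after seeing the data, and 0 to 14 with libraries left out (4 without DMSO replicate 1). Those at a P value under 0.05 numbered 20 with the block and sense library sizes and 12 to 20 with libraries left out. Over all genes in edgeR with the block, 0.694% passed the adjusted limit and 1518 of 16289 had a P value under 0.05. Shares over all genes were not computed for the other antisense alternatives. The antisense median stayed between -0.546 and -0.259. The ratio test, with 0 members throughout, gave 0 to 7 when a pair was left out under the block, also added after seeing the data. Single genes changed direction with a P value under 0.05 on 1 side only without regard to strand, MT-ND6 to 0.265 with the block and MT-TP to -0.219, or -0.225 with the block. Why these counts move was not tested.

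The 10 untested tRNAs had 10 sense counts or fewer per library, and 3 libraries per treatment limit the rest.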
